A study of Mus musculus with 15 samples.

Results

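The 9 genes described here encode the molecules by which leukocytes leave the blood: 6 displayed or secreted by vessel walls (Glycam1, Madcam1, Icam1, Vcam1, Selp and Sele) and 3 integrin subunits carried by leukocytes (Itgal, Itgb2 and Itga4). They were chosen by name, with earlier results of these data known, from the 48709 genes of the deposited count table, and all 9 were among the 16554 genes with enough counts for a test. RNA was sequenced from pancreatic islets of 15 female NOD mice (NOD genotype, with no allele or treatment added), 3 at each of 5 ages: 4, 6, 8, 10 and 12 weeks. NOD mice develop autoimmune diabetes without intervention, and leukocytes enter their islets beforehand, a lesion called insulitis. The islets were freed with collagenase and picked by hand, so each library holds endocrine cells together with whatever vessels, leukocytes and peri-islet tissue stayed attached. Every value is therefore a level in a mixture, and fewer cells of a type cannot be told apart from less RNA per cell.

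Leukocytes slow down on selectins and on sialomucins that carry selectin ligands, are activated by chemokines shown on the vessel wall, and then hold fast through integrins. In lymph nodes the traffic passes through high endothelial venules, which display sulphated, fucosylated addressins, among them GlyCAM-1 and MAdCAM-1, and MAdCAM-1 is bound by the integrin alpha4beta7 (Itga4 with Itgb7). In inflamed tissue ICAM-1 holds LFA-1 (Itgal with Itgb2), VCAM-1 holds VLA-4 (Itga4 with Itgb1), and P- and E-selectin (Selp and Sele) bind PSGL-1 (Selplg). Several of these genes are also expressed outside the vessel wall: Icam1 and Vcam1 in stromal and myeloid cells, Selp in platelets and Glycam1 in the mammary gland.

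On mm10, as the deposited table gives them, the vessel-side genes lie at chr15:103562762-103565078 (Glycam1), chr10:79664574-79668536 (Madcam1), chr9:21015960-21028797 (Icam1), chr3:116109949-116129688 (Vcam1), chr1:164115264-164150026 (Selp) and chr1:164048234-164057677 (Sele). Itgal lies at chr7:127296260-127335138, Itgb2 at chr10:77530252-77565708 and Itga4 at chr2:79255426-79333123. The 3' part of Itga4 overlaps the opposite-strand gene Cerkl, with 1124 of its 13978 exon bases (8.04%) shared between chr2:79330543 and chr2:79332656. Cerkl itself had 448 to 1397 counts per mouse, and whether the counting used strand is not given in the sources used here, so reads from the shared stretch cannot be told apart.

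The bases upstream of 3 vessel-side genes are shown because the motifs searched for differ among them and lie close to the start. The sequences are those of RefSeq on GRCm38.p6, 120 bases up to the base before the annotated start, 5' to 3' on the strand of the gene, with motif matches in capitals:
Madcam1 (chr10:79664439-79664558, plus strand): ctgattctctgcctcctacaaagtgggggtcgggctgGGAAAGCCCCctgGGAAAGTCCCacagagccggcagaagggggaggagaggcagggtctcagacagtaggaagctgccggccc
Sele (chr1:164048114-164048233, plus strand): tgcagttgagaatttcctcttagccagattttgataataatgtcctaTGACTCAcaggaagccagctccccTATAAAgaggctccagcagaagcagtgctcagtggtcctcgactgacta
Glycam1 (chr15:103565082-103565201, minus strand): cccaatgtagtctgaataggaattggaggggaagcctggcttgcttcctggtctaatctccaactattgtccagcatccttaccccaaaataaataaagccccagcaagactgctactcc
Both strands of the 250 bases upstream of the 6 members with a RefSeq entry (Glycam1, Madcam1, Icam1, Selp, Sele and Itga4) were searched for the NF-kappaB consensus, for TGACTCA, the motif of AP-1, and for TATAAA. The consensus was taken as GGGRNNYYCC, where R is A or G, Y is C or T and N is any base. Madcam1 held the NF-kappaB consensus at 2 places, at -83 to -74 and at -70 to -61 before the start, on the opposite strand. Sele held TGACTCA at -73 to -67 and TATAAA at -49 to -44. Of all 32851 promoters of this length, 7.25% held the NF-kappaB consensus, 4.46% TGACTCA and 12.4% TATAAA. None of the 3 motifs was in the window of Glycam1, Icam1, Selp or Itga4. Only full matches to these patterns were sought. Sites of a looser form were not searched for, so a window without a match, that of Icam1 or Sele included, may still hold an NF-kappaB site. The matches did not overlap. A match in a window is a string of letters and says nothing of whether a factor was bound in these islets.

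Total counts per mouse ran from 25407492 to 41616275, and levels are given as CPM (counts divided by the TMM-adjusted library size, then scaled up to a standard library). The floor of detection was set at 3 counts, or 0.0753 to 0.128 CPM. These limits cover counting error only. A panel of 10 pan-leukocyte genes, among them Ptprc (CD45), summed to between 31.2 and 201 CPM in the mice of 4 weeks and between 43.0 and 201 CPM in those of 6 weeks. Its sum was between 110 and 755 CPM at 8 weeks, between 893 and 2045 CPM at 10 weeks and between 1535 and 1995 CPM at 12 weeks. A panel of 12 endothelial genes, among them Cdh5 (VE-cadherin), moved far less, with 583 to 603 CPM in the youngest and 711 to 797 CPM in the oldest mice. The islet label held in every library by its defining genes: 8 endocrine genes, insulin and glucagon among them, summed to 306956 ± 17611 CPM at 4 weeks and 160902 ± 20084 at 12 weeks (SD, n = 3). Some libraries stood apart from others of their age. Replicate 1 at 4 weeks had 201 CPM of the leukocyte panel against 54.5 and 31.2 in the others, and replicate 1 at 8 weeks had 110 CPM against 543 and 755. Replicate 1 at 12 weeks, and less so replicate 2 at 6 weeks, carried transcripts of intestinal epithelium, at 390 and 119 CPM for a list of 10 genes against 40.4 to 84.1 CPM in the other 13 libraries. Acinar transcripts differed between mice of an age as well. A list of 7 acinar genes summed to 9363 CPM in replicate 2 at 4 weeks against 1126 and 1284. It summed to 13370 CPM in replicate 1 at 10 weeks against 5238 and 1674, and to 11323, 7074 and 2752 CPM at 12 weeks.

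Glycam1 went from the floor to the most abundant of the 9 messages. It had 1, 1 and 0 counts in the mice of 4 weeks, 1, 15 and 33 at 6 weeks, 2, 113 and 882 at 8 weeks, 1292, 3149 and 659 at 10 weeks and 5202, 8094 and 7337 at 12 weeks. The last age stood clear of every younger mouse, and at 6 and 8 weeks single mice were still at the floor while others were not. In CPM the mice of 12 weeks had 169, 271 and 231, against at most 0.128 for 3 counts in any library of 4 weeks, so Glycam1 was at least 1315-fold higher at 12 than at 4 weeks (edgeR quasi-likelihood test, Benjamini-Hochberg adjusted p = 0.000346). The mice of 10 weeks, at 21.9 to 79.1 CPM, were already at least 171-fold above that floor. Per length of transcript, Glycam1 reached 901 ± 221 TPM at 12 weeks (SD, n = 3; TPM scales each library to a fixed sum of transcripts). The next vessel-side message, Icam1, stood at 75.2 ± 16.7 TPM in the same mice. The milk genes Csn2, Csn3, Csn1s1, Wap and Lalba, which mark mammary secretory cells, had 0 to 6 counts in every library.

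Madcam1, the mucosal addressin, followed at a much lower level. Its counts were 4, 2 and 0 at 4 weeks, 3, 2 and 4 at 6 weeks, 1, 17 and 64 at 8 weeks, 102, 309 and 135 at 10 weeks and 188, 495 and 158 at 12 weeks. It was barely detected at 4 and 6 weeks, was above the floor in 2 of 3 mice at 8 weeks, and was detected in all mice from 10 weeks. The log2 fold change from 4 to 12 weeks was 6.82 (SE 1.12), a 113-fold difference that rests on 0 to 4 counts in the younger mice (edgeR, adjusted p = 0.000529). It was 7.71 without replicate 1 of 4 weeks, 6.22 without replicate 3 of 4 weeks and 6.08 without replicate 2 of 12 weeks (log2). Replicate 2 of 12 weeks, which had the most Glycam1 and the most Madcam1 (16.5 CPM against 6.09 and 4.97), also had the most Ccl21a, with 2889 counts against 698 and 1096. Ccl21a encodes a chemokine of lymph node stroma and lymphatic vessels, and is also in the high endothelial venule list below. Other markers of such tissue were divided in this mouse. Lyve1 (748 counts against 239 and 386), Mmrn1 (189 against 81 and 99) and Grem1 (266 against 68 and 119) were highest in it. So were Cr2 (2114 against 887 and 1859) and Clec4g (28 against 6 and 2). Ccl19 (1705 against 1865 and 2435) and Cxcl13 (2050 against 2247 and 3210) were lowest in it. The part of attached lymphatic or lymph node tissue in the values of Glycam1 and Madcam1 was not tested.

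**Figure D1:**
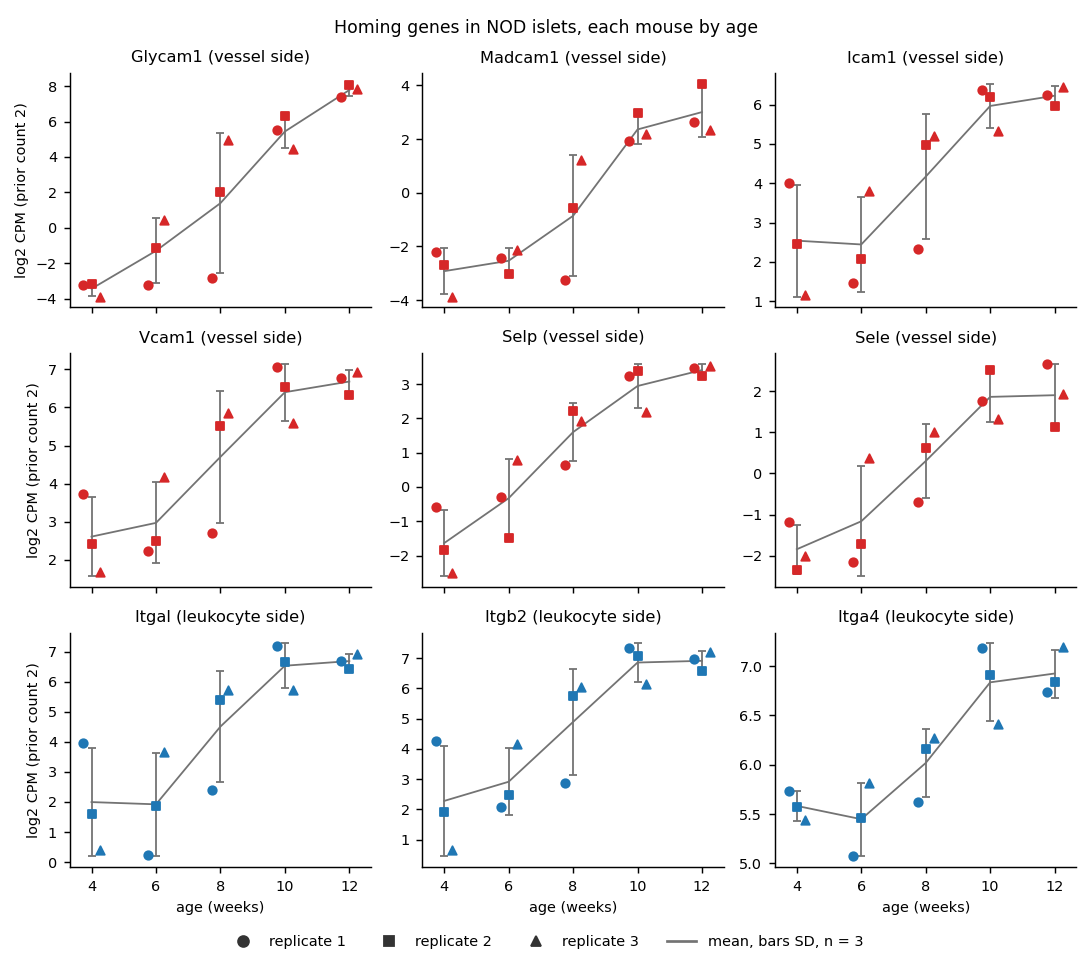
Log2 CPM (prior count 2) of each homing gene in every mouse against age in weeks; symbols are the 3 mice of an age and the grey line joins the means with bars of 1 SD. All 9 genes lie above every mouse of 4 weeks by 12 weeks, and within 8 weeks replicate 1 is the lowest mouse for each of the 9.

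Icam1 and Vcam1, the immunoglobulin-family ligands of LFA-1 and VLA-4, were present at all ages. Icam1 was at 16.0, 5.43 and 2.17 CPM in the mice of 4 weeks, 2.69, 4.13 and 13.9 at 6 weeks, 4.96, 31.6 and 36.6 at 8 weeks, 83.1, 73.1 and 40.1 at 10 weeks and 75.7, 62.9 and 87.8 at 12 weeks. Vcam1 was at 13.2, 5.26 and 3.11 CPM at 4 weeks, 4.60, 5.58 and 18.1 at 6 weeks, 6.49, 46.0 and 58.2 at 8 weeks, 134, 93.3 and 48.1 at 10 weeks and 109, 80.7 and 123 at 12 weeks. For both genes the mice of 10 and 12 weeks overlapped with each other and lay above every mouse of 4 and 6 weeks, while the mice of 8 weeks spanned the gap. From 4 to 12 weeks Icam1 rose 9.59-fold (log2 3.26, SE 0.81; edgeR, adjusted p = 0.00498). Vcam1 rose 14.4-fold (log2 3.85, SE 0.80; edgeR, adjusted p = 0.00185). Without replicate 1 of 4 weeks, which had the most leukocyte RNA of its age, the log2 fold changes were 4.33 for Icam1 and 4.65 for Vcam1.

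Selp and Sele, the vascular selectins that capture rolling leukocytes, were at low levels, and each was at the floor of 3 counts in 1 mouse of 4 weeks. Selp was at 0.599, 0.214 and 0.109 CPM in the mice of 4 weeks, 0.753, 0.289 and 1.66 at 6 weeks, 1.50, 4.60 and 3.75 at 8 weeks, 9.41, 10.4 and 4.52 at 10 weeks and 11.1, 9.29 and 11.5 at 12 weeks. Sele was at 0.374, 0.128 and 0.181 CPM at 4 weeks, 0.158, 0.237 and 1.22 at 6 weeks, 0.547, 1.46 and 1.93 at 8 weeks, 3.33, 5.63 and 2.43 at 10 weeks and 6.22, 2.11 and 3.77 at 12 weeks. The mice of 12 weeks were close together for Selp and spread beyond the range of 10 weeks at both ends for Sele. Selp rose 34.0-fold from 4 to 12 weeks (log2 5.09, SE 0.69; edgeR, adjusted p = 0.000262), or by 6.03 on the log2 scale without replicate 1 of 4 weeks. Sele rose 17.2-fold (log2 4.11, SE 0.78; edgeR, adjusted p = 0.00112). Platelets also hold P-selectin, and a list of 6 platelet genes summed to 5.90 to 6.66 CPM at 4 weeks and 7.32 to 9.70 at 12 weeks, with 1 of its 5 tested genes higher at 12 weeks (26.3% of all genes were). The list was divided. Pf4 was at 0.299, 0.299 and 0.434 CPM at 4 weeks and 2.40, 2.67 and 4.31 at 12 weeks. Gp9 was at 0.299, 0.385 and 0.760 CPM at 4 weeks and 0.292, 0.334 and 0.126 at 12 weeks. The part of platelets in the level of Selp was not tested.

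On the leukocyte side, Itgal and Itgb2, the 2 chains of LFA-1, had nearly the same course. Itgal was at 15.5, 2.99 and 1.27 CPM in the mice of 4 weeks, 1.11, 3.58 and 12.6 at 6 weeks, 5.22, 41.8 and 53.4 at 8 weeks, 147, 102 and 53.2 at 10 weeks and 103, 86.7 and 123 at 12 weeks. Itgb2, the beta chain that LFA-1 shares with the myeloid integrins, was at 19.2, 3.68 and 1.52 CPM at 4 weeks, 4.16, 5.52 and 18.1 at 6 weeks, 7.26, 54.0 and 66.2 at 8 weeks, 163, 135 and 70.8 at 10 weeks and 125, 95.9 and 147 at 12 weeks. In both genes replicate 1 of 4 weeks, the mouse of that age with the most RNA of the leukocyte panel, stood far above the others of its age. Itgal rose 15.8-fold from 4 to 12 weeks (log2 3.98, SE 1.01; edgeR, adjusted p = 0.00555). Itgb2 rose by 3.91 on the log2 scale (SE 0.93; edgeR, adjusted p = 0.00397). Without replicate 1 of 4 weeks the log2 fold changes were 5.63 for Itgal and 5.58 for Itgb2.

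Itga4, the alpha chain of VLA-4 and of alpha4beta7, started from a higher level than the LFA-1 chains. It was already at 53.3, 47.5 and 43.3 CPM in the mice of 4 weeks, and at 33.6, 43.9 and 56.2 at 6 weeks, 49.1, 71.7 and 77.1 at 8 weeks, 146, 120 and 84.9 at 10 weeks and 106, 115 and 147 at 12 weeks. At 4 weeks its values lay within a narrow band although the leukocyte panel of the same 3 mice ranged from 31.2 to 201 CPM. Itga4 rose 2.55-fold from 4 to 12 weeks (log2 1.35, SE 0.23; edgeR, adjusted p = 0.000657), the smallest change of the 9. The part of reads from the overlapping gene Cerkl in this level was not tested.

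Set side by side per transcript length, the order of the messages differed between 4 and 12 weeks. At 4 weeks the mean levels were 6.62 ± 0.90 TPM for Itga4, 6.07 ± 5.78 for Icam1, 5.26 ± 6.39 for Itgb2, 2.76 ± 2.15 for Vcam1 and 1.98 ± 2.39 for Itgal (SD, n = 3). Sele (0.153 ± 0.093 TPM), Selp (0.136 ± 0.119), Madcam1 (0.108 ± 0.106) and Glycam1 (0.082 ± 0.071) came last. Each message overlapped with its neighbour in this order, apart from Itgal (0.368 to 4.73 TPM) and Sele (0.0818 to 0.258). At 12 weeks Glycam1 led, followed by Itgb2 (102 ± 27 TPM), Icam1 (75.2 ± 16.7), Vcam1 (51.7 ± 13.1), Itgal (40.1 ± 9.3), Itga4 (22.2 ± 5.4), Madcam1 (16.1 ± 10.8), Selp (6.07 ± 0.94) and Sele (3.47 ± 1.69). Neighbours in this order overlapped from Itgb2 down to Itgal, and again for Itga4 and Madcam1. The mice did not overlap between Glycam1 (649 to 1058 TPM) and Itgb2 (76.8 to 130), between Itgal (32.2 to 50.3) and Itga4 (18.3 to 28.3) or between Madcam1 (9.44 to 28.5) and Selp (5.15 to 7.03), and Selp and Sele (1.77 to 5.14) adjoined without overlap.

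Between 4 and 12 weeks, then, all 9 genes were called higher, against 26.3% of all genes tested, and all 9 had every older mouse above every younger mouse, against 30.3% of all genes. The median log2 fold change was 4.60 over the 6 vessel-side genes and 3.91 over the 3 leukocyte-side genes, beside -0.05 over all genes. The vessel median is the same with Glycam1 at its lower bound. A test for any difference among the 5 ages called all 9 members (edgeR, adjusted p under the threshold of 0.05) and 56.0% of all genes. With 3 mice in each group the smallest p that an exact permutation test of a single gene can give is 0.1, so the calls rest on the fit across all genes.

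The steps between successive ages were smaller than the span from 4 to 12 weeks, and the mice of 8 weeks differed widely from each other. Between 4 and 6 weeks no member was called, at unadjusted p from 0.0608 to 0.852 by edgeR and none by DESeq2, while 0.0906% of all genes were called in either direction by edgeR. Between 6 and 8 weeks all 9 fold changes were positive with a median of 1.98 (log2), but the ages overlapped for all 9 (19.3% of all genes did not overlap) and none was called by edgeR (0.0% of all genes were), although 8 of 9 had an unadjusted p under 0.05 against 18.0% of all genes. DESeq2 called 2 of the 9 in that step, among 543 genes in all. Without replicate 1 of 8 weeks, the mouse with few leukocyte transcripts, edgeR called 3 of the 9 among 797 genes in all. Without that mouse the log2 fold change of Glycam1 was 4.98 (adjusted p = 0.0277) and that of Madcam1 3.75 (adjusted p = 0.0383) by edgeR.

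Between 8 and 10 weeks all 9 fold changes were again positive, with a median of 1.53 (log2), and 5 of the 9 had every older mouse above every younger mouse, against 17.2% of all genes. One member, Itga4, was called higher, 1.77-fold (log2 0.83, SE 0.23; edgeR, adjusted p = 0.0350), against 8.4% of all genes. That call was lost in a fit of these ages alone (adjusted p = 0.171) and in 4 of the 6 fits without a mouse of 8 or 10 weeks: without replicate 1 or 2 of 8 weeks (adjusted p = 0.149 and 0.0767) and without replicate 1 or 2 of 10 weeks (adjusted p = 0.146 and 0.123). In each of these 5 fits 0 genes in all were called, against 2776. Madcam1 missed the threshold, at 5.43-fold (log2 2.44, SE 0.81; edgeR, adjusted p = 0.0550). It was called by DESeq2 (adjusted p = 0.0224), by edgeR without replicate 3 of 8 weeks (log2 4.03, adjusted p = 0.0190) and by edgeR without replicate 3 of 10 weeks (log2 2.55, adjusted p = 0.0495). Glycam1 was 4.15-fold higher with an adjusted p of 0.134 by edgeR, and 4.58 on the log2 scale without replicate 3 of 8 weeks, the mouse of that age with the most Glycam1 (adjusted p = 0.0157).

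Between 10 and 12 weeks no member was called, and 0.0% of all genes were. By DESeq2 and by edgeR's exact test no member was called either, although these tools called 12 and 8 genes in all. The log2 fold changes of Icam1, Vcam1, Selp, Sele, Itgal, Itgb2 and Itga4 lay between -0.01 and 0.38, with standard errors of 0.23 to 0.87, so that differences of about that size could not be resolved. That of Madcam1 was 0.79 (SE 0.74). Glycam1 was the 1 member with an unadjusted p under 0.05, as 7.52% of all genes had (log2 2.18, SE 0.93; edgeR, adjusted p = 0.640), and the 1 member with every mouse of 12 weeks above every mouse of 10 weeks, against 4.42% of all genes.

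A pair of reference levels were then put in place of all genes to compare the vessel side with the leukocyte side: the endothelial panel, which gives a level per endothelial RNA, and the leukocyte panel, which gives a level per leukocyte RNA. For genes expressed in several cell types, such as Icam1 and Vcam1, neither is a level within a single cell type. Relative to the endothelial panel, all 6 vessel-side genes were still called higher at 12 than at 4 weeks, against 16.0% of all genes, whose median change on this scale was -0.49 (log2). Glycam1 was at least 1082-fold higher, and the log2 fold changes were 6.36 (SE 1.06) for Madcam1, 2.86 (SE 0.76) for Icam1, 3.44 (SE 0.75) for Vcam1, 4.67 (SE 0.64) for Selp and 3.71 (SE 0.76) for Sele. The adjusted p of these 6 genes ran up to 0.00450 in edgeR, that of Icam1. The 3 leukocyte-side genes were called higher on this scale too, so it does not set the vessel side apart. Their log2 fold changes were 3.58 for Itgal, 3.51 for Itgb2 and 0.91 for Itga4 (edgeR, adjusted p = 0.00460, 0.00308 and 0.00302). Without replicate 1 of 4 weeks the log2 fold changes on this scale were 7.23 for Madcam1, 3.88 for Icam1, 4.20 for Vcam1 and 5.58 for Selp, and that of Madcam1 was 5.71 without replicate 2 of 12 weeks. The endothelial panel itself changed by little in the fit against all genes, with 7 of its 12 genes called higher (26.3% of all genes were), none lower and a median log2 fold change of 0.43.

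Relative to the leukocyte panel, the picture differed between the genes. Glycam1 was at least 26.5-fold higher at 12 than at 4 weeks on this scale (edgeR, adjusted p = 9e-07), and Madcam1 had a log2 fold change of 2.69 (SE 1.09; edgeR, adjusted p = 0.0150), so that 2 members were called higher against 0.906% of all genes. Over all genes the median change was -5.14 (log2) on this scale, and 92.5% of them were called lower. The other 4 vessel-side genes were not called, with log2 fold changes of -1.02 (SE 0.87) for Icam1, -0.64 (SE 0.87) for Vcam1, 0.76 (SE 0.91) for Selp and -0.49 (SE 0.96) for Sele, and adjusted p from 0.249 to 0.623 in edgeR. Itgal (log2 -0.04, SE 0.87) and Itgb2 (log2 -0.10, SE 0.88) were not called either, at adjusted p of 0.969 and 0.914, and the standard errors leave room for differences of either sign. The fit shares its estimate of spread over all genes, so these similar standard errors rest mostly on that shared spread and little on each gene's own. A gene not called can still differ. Icam1 lay above the panel's mean log2 CPM in every mouse of 4 weeks (4.00, 2.46 and 1.16 against 3.89, 2.07 and 1.11). It lay below that mean in every mouse of 12 weeks (6.24, 5.98 and 6.46 against 6.99, 6.95 and 7.31). Vcam1 was below it in every mouse of 12 weeks too (6.77, 6.34 and 6.94). At 4 weeks (3.74, 2.41 and 1.67) Vcam1 was above it in replicates 2 and 3 and below it in replicate 1. Itga4 was called lower, at -3.69 on the log2 scale (SE 0.99; edgeR, adjusted p = 0.000257), and at -3.05 without replicate 3 of 4 weeks. The call of Madcam1 was lost without replicate 2 of 12 weeks, where its log2 fold change was 1.85 (adjusted p = 0.136), and without replicate 1 of 4 weeks (2.56, adjusted p = 0.0535). Between 10 and 12 weeks Glycam1 had a log2 fold change of 2.07 (SE 0.92) on this scale, which was not called (edgeR, adjusted p = 0.9996), and 0.0544% of all genes were called higher. The use of the leukocyte panel for the vessel-side genes, and this last comparison, were added after the data had been seen.

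**Figure D2:**
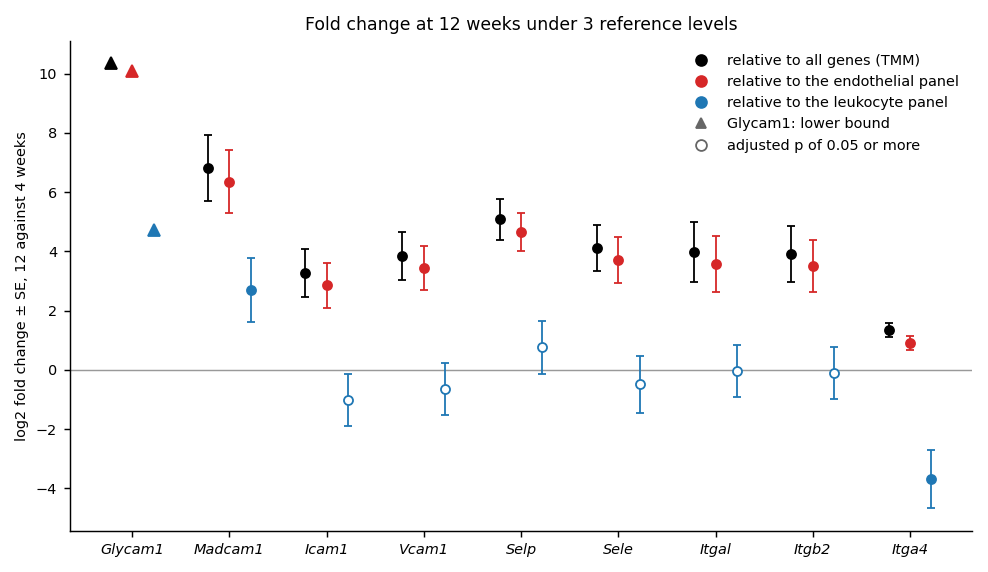
Log2 fold change (bars SE) of the 9 genes at 12 against 4 weeks relative to all genes, to the endothelial panel and to the leukocyte panel, with open symbols where the adjusted p was 0.05 or more and triangles for the lower bounds of Glycam1. Relative to the endothelial panel all genes lie above 0, and relative to the leukocyte panel Glycam1 and Madcam1 do so with filled symbols, while Itga4 lies at -3.69.

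The same contrast can be seen mouse by mouse. Within 8 weeks, replicate 1 was lowest in the leukocyte panel and lowest for all 9 members, and replicate 3 was highest in the panel and highest for 8. Within 6 weeks replicate 3 was highest in the panel and highest for all 9, and replicate 1 was lowest in the panel and lowest for 7. At 4 weeks replicate 1 was highest in the panel and highest for 8 of the 9 members, Glycam1 being the exception with 1 count in replicates 1 and 2, and replicate 3 was lowest in the panel and lowest for 8. At 10 weeks replicate 3 was lowest in the panel and lowest for 8 of the 9, but replicate 1, highest in the panel, was highest for 5. At 12 weeks, where the panel spans a narrow range, replicate 2 was lowest in the panel and lowest for 6, and replicate 3 highest in the panel and highest for 6. These orders share library, depth and tissue makeup and are given as a description. Replicate 1 of 4 weeks and replicate 3 of 6 weeks, chosen after their values were seen, had 201 CPM of the leukocyte panel each, and their Icam1 (16.0 and 13.9 CPM), Vcam1 (13.2 and 18.1) and Itgb2 (19.2 and 18.1) were close together. Glycam1 was at 1 count in the former and 33 in the latter. Selp (0.599 and 1.66 CPM) and Sele (0.374 and 1.22) were also lower in the former, while Madcam1 had 4 counts in each.

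**Figure D3:**
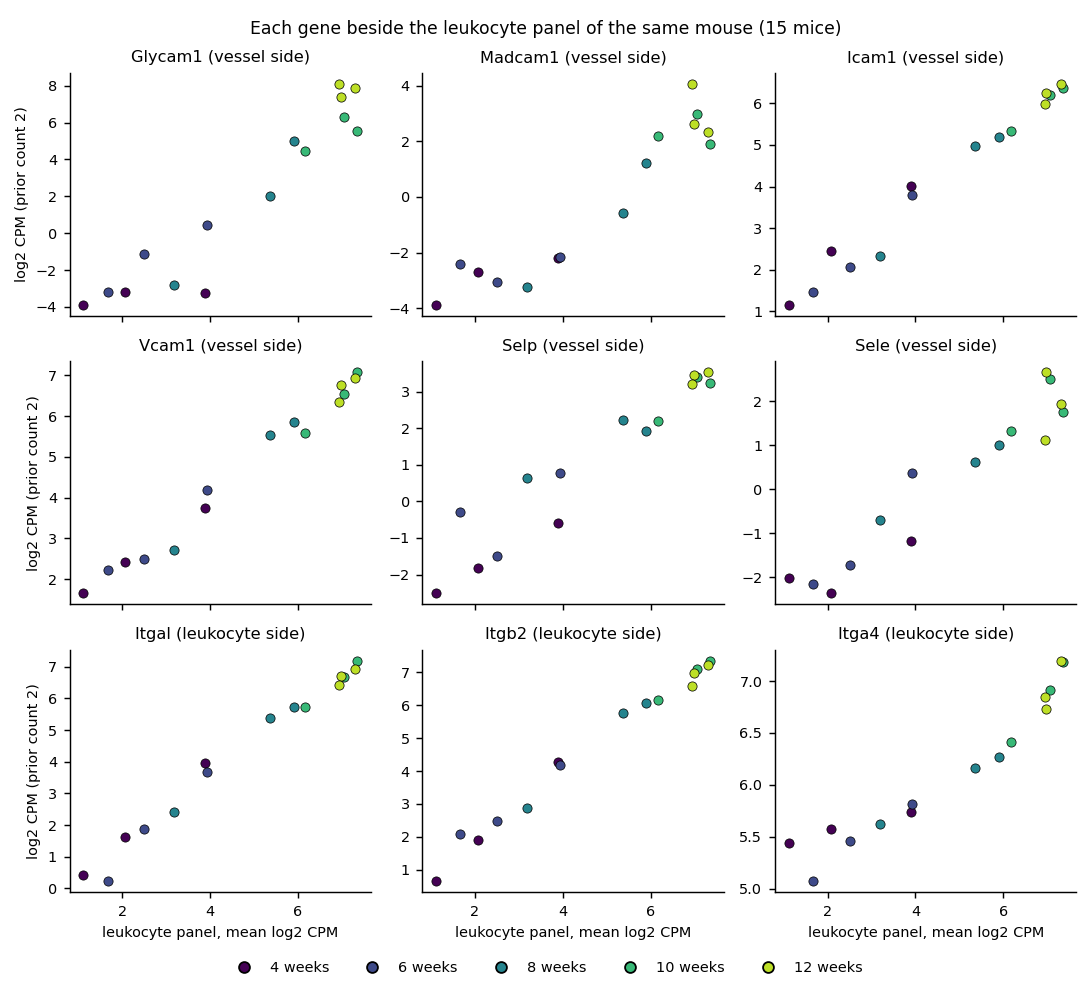
Log2 CPM (prior count 2) of each homing gene against the mean log2 CPM of the 10 leukocyte panel genes in the same mouse, coloured by age. Icam1, Vcam1, Itgal and Itgb2 lie along a single line over the 15 mice, Itga4 is flat at the left and Glycam1 rises late, with the 12-week mice above the 10-week mice at like panel levels.

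Each vessel molecule was then divided by its leukocyte partner in the same mouse, as a log2 ratio of CPM. Since the ratio also depends on the lengths of both transcripts, only its change with age is described, and since 3 mice against 3 cannot reach a p under 0.1 by exact permutation, no test is given. The ratio of Icam1 to Itgal was 0.04, 0.84 and 0.75 in the mice of 4 weeks, 1.23, 0.20 and 0.14 at 6 weeks, -0.07, -0.40 and -0.54 at 8 weeks, -0.82, -0.48 and -0.41 at 10 weeks and -0.45, -0.46 and -0.48 at 12 weeks. All mice of 4 and 6 weeks thus lay above all mice of 8 to 12 weeks, and the integrin chain gained on its ligand by about 1 log2 unit (mean 0.55 ± 0.44 at 4 weeks, -0.46 ± 0.02 at 12 weeks; SD, n = 3). Against Itgb2, the other LFA-1 chain, the ages did not part in this way: the ratio was 0.26 ± 0.46 at 4 weeks, -0.47 ± 0.13 at 6 weeks, -0.72 ± 0.16 at 8 weeks, -0.89 ± 0.08 at 10 weeks and -0.69 ± 0.07 at 12 weeks (log2, SD, n = 3). Mice of 4 weeks lay above all mice of 8 to 12 weeks, whereas those of 6 weeks overlapped with those of 8 and 12 weeks.

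For VCAM-1 and its receptor chain the ratio went the other way. Itga4 is a poor measure of leukocytes in the youngest mice, however. At 4 weeks it stayed at 43.3 to 53.3 CPM while the leukocyte panel ranged from 31.2 to 201 CPM. The source of that level, with reads from Cerkl, was not tested, so the change in this ratio cannot be read as vessel against leukocyte RNA. In the youngest mice the ratio of Vcam1 to Itga4 was -2.98 ± 0.90, followed by -2.48 ± 0.74 in those of 6 weeks, -1.32 ± 1.38 in those of 8 weeks, -0.43 ± 0.36 in those of 10 weeks and -0.24 ± 0.27 in the oldest (log2, SD, n = 3). All mice of 10 and 12 weeks (-0.82 to 0.04) lay above all mice of 4 and 6 weeks (-3.77 to -1.63). Itga4 pairs with Itgb1 to make VLA-4, and Itgb1 was not called between 4 and 12 weeks (307 and 354 CPM on average; log2 0.20, SE 0.09; edgeR, adjusted p = 0.0845). It pairs with Itgb7 to make the MAdCAM-1 receptor, and Itgb7 rose (log2 4.70, SE 0.97; edgeR, adjusted p = 0.00173).

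The ratio of Madcam1 to Itga4 was -8.51 ± 0.72 at 4 weeks, -7.99 ± 0.51 at 6 weeks, -6.88 ± 1.93 at 8 weeks, -4.48 ± 0.70 at 10 weeks and -3.92 ± 1.05 at 12 weeks (log2, SD, n = 3). All mice of 10 and 12 weeks lay above all mice of 4 and 6 weeks, where Madcam1 was at 3 counts or fewer in 4 of 6 mice. The limit given for Itga4 in the ratio with Vcam1 holds for this ratio too. The ratio of Madcam1 to Itgb7 had no clear course. It was at -3.67 ± 0.85 at 10 weeks and -3.24 ± 1.14 at 12 weeks (log2, SD, n = 3), and in 5 of the 9 younger mice Madcam1 or Itgb7 was at 3 counts or fewer. For P-selectin and PSGL-1, the ratio of Selp to Selplg was -3.24 ± 0.13 at 10 weeks and -2.86 ± 0.13 at 12 weeks without overlap, and the mice of 4 weeks (-4.43 to -2.79) overlapped with both ages. The ratio of Sele to Selplg was -3.70 ± 1.36 at 4 weeks and -4.36 ± 0.63 at 12 weeks (log2, SD, n = 3), and the mice of 4 weeks (-5.02 to -2.30) spanned those of 12 weeks (-4.84 to -3.65).

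**Figure D4:**
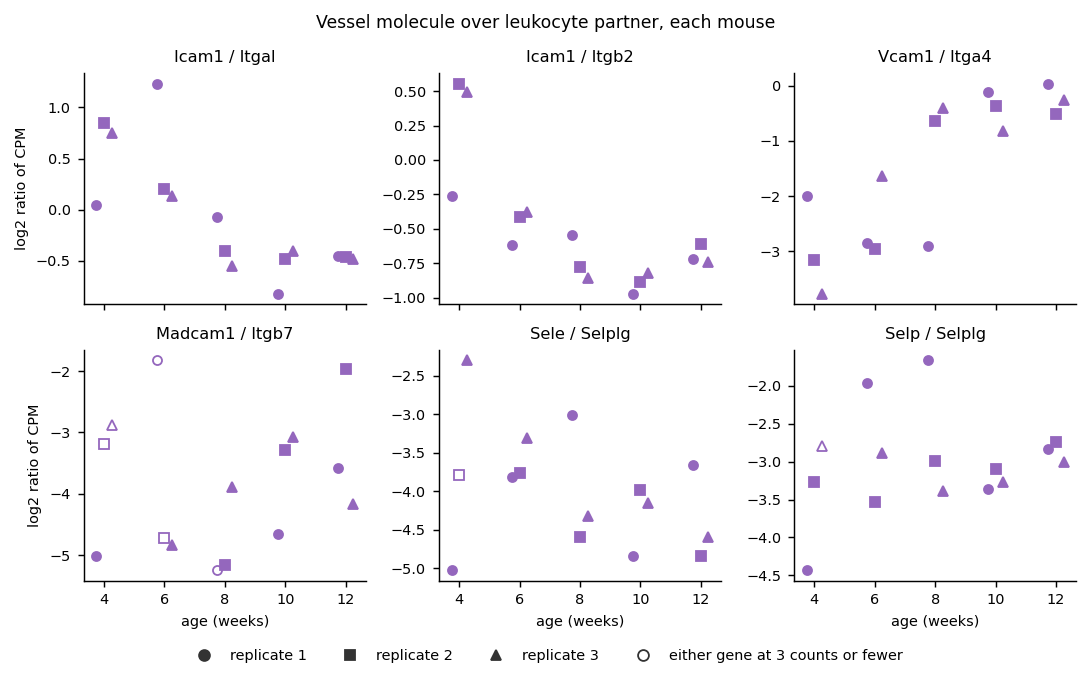
Log2 ratio of the CPM of a vessel molecule to that of its leukocyte partner in each mouse against age in weeks, for 6 pairs, with open symbols where either gene had 3 counts or fewer. Icam1 over Itgal lies lower at 8 to 12 weeks than at 4 and 6, and Vcam1 over Itga4 lies higher at 10 and 12 weeks, whereas Sele over Selplg overlaps between 4 and 12 weeks.

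Of 9 further genes on the leukocyte side of homing, 8 were called higher at 12 than at 4 weeks (26.3% of all genes were), none lower, and the median log2 fold change was 3.68. Ccr7, the receptor that guides naive lymphocytes to lymph nodes, rose by 5.16 on the log2 scale (SE 1.03; edgeR, adjusted p = 0.00147). Spn, the leukocyte sialomucin CD43, rose by 4.37 (SE 1.07; edgeR, adjusted p = 0.00466). Selplg rose by 3.68 on the log2 scale (SE 0.90; edgeR, adjusted p = 0.00457), and relative to the leukocyte panel it was not called (log2 -0.32, SE 0.86; adjusted p = 0.722).

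High endothelial venules need enzymes that build the sulphated and fucosylated sugars of the addressins, and 16 genes of this programme and of venule identity were examined. At 12 against 4 weeks 12 of them were called higher (26.3% of all genes were), 1 lower and 3 neither, with a median log2 fold change of 1.08. Chst4, the sulphotransferase of high endothelial cells, was at 0 counts in every mouse of 4 weeks, at 0, 6 and 6 at 6 weeks, 0, 17 and 49 at 8 weeks, 84, 188 and 38 at 10 weeks and 202, 163 and 179 at 12 weeks. It was thus at least 42.5-fold higher at 12 than at 4 weeks. Fut7, a fucosyltransferase that leukocytes also use for their selectin ligands, rose by 5.13 on the log2 scale (SE 1.14; edgeR, adjusted p = 0.00271). Ackr1, a chemokine-binding receptor of venules, rose by 4.47 (SE 0.47; adjusted p = 0.000133). Ccl21a rose by 3.26 (SE 0.69; edgeR, adjusted p = 0.00194), with 698, 2889 and 1096 counts at 12 weeks against 124, 198 and 82 at 4 weeks. Relative to the leukocyte panel these last 3 genes were not called: Fut7 had a log2 fold change of 1.46 (adjusted p = 0.138), Ackr1 -0.48 (adjusted p = 0.592) and Ccl21a -1.64 (adjusted p = 0.0655) by edgeR. Chst4 was called higher on that scale (edgeR, adjusted p = 0.000319), but its lower bound there was 0.708-fold, which gives no direction. The 1 gene called lower was Emcn (endomucin, log2 -0.28, SE 0.11; adjusted p = 0.0495), named after its value was seen.

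Adhesion genes of endothelial junctions and surfaces were divided. Of 8 such genes 4 were called higher, 1 lower and 3 neither, with a median log2 fold change of 0.17. Of all genes 26.3% were called higher, and a list this short cannot be set apart from that share. Icam2, a constitutive ligand of LFA-1, rose by 1.44 on the log2 scale (SE 0.18; edgeR, adjusted p = 0.000225). Jam2, a junctional molecule of venules, rose by 0.95 (SE 0.16; edgeR, adjusted p = 0.000667). Alcam, the ligand of CD6, fell by 0.52 (SE 0.10; edgeR, adjusted p = 0.00142).

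Of 10 genes whose products switch leukocyte integrins to their binding state, 8 were called higher (26.3% of all genes were), 1 lower and 1 neither, with a median log2 fold change of 3.41. Cytip, a regulator of LFA-1 adhesion through cytohesin, rose by 4.82 on the log2 scale (SE 0.86; edgeR, adjusted p = 0.000771). Apbb1ip (RIAM) rose by 4.16 (SE 0.69; adjusted p = 0.000546). Fermt3, the kindlin of blood cells, rose by 3.85 (SE 0.74; adjusted p = 0.00112). Rap1b, a small GTPase present in nearly all cells, was the 1 gene called lower (log2 -0.29, SE 0.07; adjusted p = 0.00379), again named after its value was seen.

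**Figure D5:**
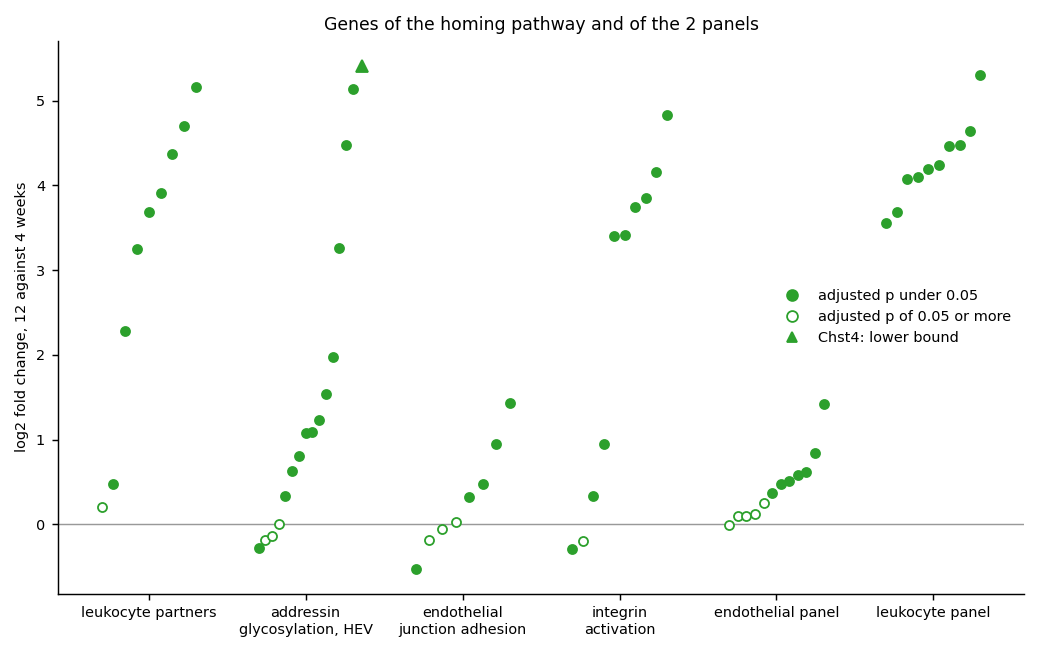
Log2 fold change at 12 against 4 weeks of each gene in the 4 lists of the homing pathway and in the endothelial and leukocyte panels, with open symbols where the adjusted p was 0.05 or more and a triangle for the lower bound of Chst4. Most leukocyte partners and integrin activators lie well above 0, as the leukocyte panel does, with medians of 3.68, 3.41 and 4.22, whereas the junction genes and the endothelial panel stay near 0, with medians of 0.17 and 0.43.

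Markers of T cells, B cells, myeloid cells and mesenchyme moved with the members. Those of lymph node stroma and lymphatic vessels were divided, and endocrine markers went down. All 8 T cell, all 6 B cell and all 8 myeloid genes examined were called higher at 12 than at 4 weeks, against 26.3% of all genes, with median log2 fold changes of 4.85, 7.07 and 2.72. The T cell list summed to 1.48 to 30.7 CPM at 4 weeks and 306 to 427 at 12 weeks, and the B cell list to 5.32 to 9.41 and 279 to 419. Of 10 genes of lymph node stroma, follicular dendritic cells and lymphatic vessels 9 were tested, and 5 were called higher and 1 lower. That list summed to 127 to 147 CPM at 4 weeks and 258 to 350 at 12 weeks. Of 7 mesenchymal genes all were called higher. Among 8 endocrine genes 7 were called lower, with a median log2 fold change of -0.90. Of 7 acinar genes none was called, with a median log2 fold change of 0.83. Of 10 intestinal genes 3 were tested and 2 were called higher. The part of any of these cells in the levels of the homing genes was not tested beyond the panel comparisons given above.

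By the root mean square difference of log2 CPM over the 15 mice, each gene centred on its own mean, the genes nearest to a member out of 14340 were found. The genes compared had a mean log2 CPM of at least 0, and members were left out. Itgb2 ran closest to Selplg (0.118) and Arhgap30 (0.186), and Itgal to Ptpn7 (0.197) and Lcp2 (0.20), signalling genes of lymphocytes. Vcam1 was nearest to Slfn8 (0.125) and Tnfrsf1b (0.180), Icam1 to Irf8 (0.207) and Tnfrsf1b (0.214), and Itga4 to Nemp2 (0.0998) and Traf5 (0.104). Sele was nearest to Tlr7 (0.412) and H2-K2 (0.432), Selp to Abcg3 and C3 (both 0.446), and Madcam1 to Lef1 (0.717) and Shisa3 (0.738). The nearest to Glycam1, Ighd (1.66), lay farther away than the nearest neighbour of any other member. The measure is not scaled and grows with a gene's own range, which was widest for Glycam1, so its distances cannot be set against those of other members. All these genes share the libraries and their tissue makeup, and the measure is a description.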

How the data were processed

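Members and gene lists were chosen with earlier results of these data known. Labels gave mm10, and the study's methods named polyA libraries, 150-base read pairs and CLC Genomics Workbench 23.0 with default settings. The counts deposited by the authors are whole reads per gene, not normalized. Their deposited TPM values were used only to compare levels between genes, and 30 further per-sample columns were not used. All 15 samples entered 1 edgeR 4.0.16 fit (R 4.3.3): filterByExpr over the 5 ages, TMM, glmQLFit and glmQLFTest, Benjamini-Hochberg adjustment over all genes tested, and a call at an adjusted p under 0.05. Panel fits used the mean log2 CPM of a panel in each mouse as the offset. Log2 CPM used a prior count of 2, and 3 counts were the floor. Mice of the same age differed beyond counting noise (chi-square per degree of freedom 15.9 to 127), and p-values measure the spread between them, estimated with sharing over all genes. In the leukocyte panel fit most of those genes did not follow the panel, so p-values there rest mostly on the shared spread and little on each gene's own. DESeq2 1.42.0, edgeR's exact test, other scalings, no filter, mice left out and the replicate number as a block were alternatives. Named genes were all members, the 3 largest called changes of each homing list and the partner genes; each member's 2 nearest genes by likeness were also named, apart from 1 gene that is not reported here and was left out of the partner list. The pipeline was tested on simulated data. Tables used Python 3.11.15, pandas 2.3.3 and matplotlib 3.10.9.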

Additional observations from a re-analysis of the deposited data

How the results depend on the processing

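The 9 calls of 12 against 4 weeks and the 6 vessel-side calls relative to the endothelial panel held under every alternative run. Over those alternatives the count of genes called at 12 against 4 weeks ran from 11 to 13 in the addressin glycosylation and high endothelial venule list, from 5 to 6 in the endothelial junction list, from 8 to 9 in the integrin activation list and from 7 to 9 in the leukocyte partner list. The count of members called at 8 against 6 weeks went from 0 to 2 with DESeq2 and ran from 0 to 3 with each mouse left out. At 10 against 8 weeks it went from 1 to 2 with DESeq2, to 0 with only these ages in the fit, to 0 without the 2 libraries with intestinal transcripts (an alternative chosen after seeing the data), and ran from 0 to 3 with each mouse left out. With the replicate number as a block it was 0, and 0 genes in all were called there, against 2776. The numbers mark no shared animal, and the labels do not say whether they follow a batch. Of 30 same-numbered pairs 7 deviated together (r over 0.1, range -0.643 to 0.509), so the numbers were not taken as a pairing. The block left the 9 calls of 12 against 4 weeks in place. Counts of all genes moved more: 15 genes called at 6 against 4 weeks became 249 with DESeq2, 176 with the exact test, 141 with those ages alone and 5 with the block, 10 with DESeq2's size factors, library totals or no filter, 0 at 8 against 6 weeks became 543 and 306 with DESeq2 and the exact test and 797 without replicate 1 of 8 weeks, 0 at 12 against 10 weeks became 12 and 8, and 2776 at 10 against 8 weeks became 4096 with DESeq2, 0 with those ages alone, 0 without replicate 1 or 2 of either age and 5612 without replicate 3 of 10 weeks. With library totals the share of called genes that were higher at 12 weeks was 78.3% against 49.2%, and the median of all genes 0.20 against -0.05 (log2).

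Small fold changes at 12 against 10 weeks, none of them called, changed sign. Itgb2, at -0.01, became 0.00 to 0.02 with DESeq2's size factors (0.0047), library totals (0.0213), DESeq2 (0.0046) and those ages alone (0.0023). Sele became -0.37 without the 2 libraries with intestinal transcripts. With each mouse left out the log2 fold changes ran from -0.049 to 0.41 for Icam1, -0.13 to 0.56 for Vcam1, -0.37 to 0.49 for Sele, -0.26 to 0.42 for Itgal, -0.28 to 0.25 for Itgb2 and -0.12 to 0.26 for Itga4. Relative to the leukocyte panel, 12 against 4 weeks, they ran from -1.05 to 0.13 for Sele, -0.20 to 0.23 for Itgal and -0.28 to 0.18 for Itgb2. Ratios of Madcam1 to Itga4 moved from -8.51 to -9.50 at 4 weeks and from -7.99 to -8.53 at 6 weeks with a prior count of 0.5. The causes of these moves were not tested. Depth limits Glycam1, Madcam1 and Chst4 at 4 and 6 weeks, where most mice are near the floor.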
